A study of Mus musculus with 12 samples.

Results

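Immunoglobulin light chains of splenic B cells were examined through the 50 probes of the array whose name or description gave an immunoglobulin kappa or lambda segment, out of 55681 gene probes. In all, 55 rows matched the wording of the rule, and 4 rows for Rbpj or its relative Rbpjl and 1 row for the surrogate light chain gene Igll1 were left out. The 50 probes comprised 46 kappa and 4 lambda probes. Only 1 of the kappa probes was designed against the constant segment, Igkc. The lambda probes were a pair against the constant segment Iglc2, 1 named Iglv1 and 1 named S79427, which the array describes as the lambda variable region V lambda x. No probe carried the name of a joining segment. Many kappa probes were named by the hybridoma or cDNA clone from which they were designed, not by a germline segment, so clone names are kept as the array gives them.

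B cells were isolated from the spleens of female Balb/c mice, either controls or mice with allergic airway disease induced with house dust mite (HDM). They were cultured with a CD40 agonist for 2 days, and lipopolysaccharide (LPS) was present during the last 5 hours. Cells from all 4 groups had this culture, and were then divided by an IL-10 secretion assay and flow sorting. The groups were IL-10+ cells of HDM mice, IL-10- cells of HDM mice, IL-10+ cells of control mice and IL-10- cells of control mice, with 3 arrays each. Nothing in the labels ties the 3 samples of a group to different mice or different cultures. All p-values therefore rest on a sample-to-sample spread which may be technical only. The labels also give no sorting purity. The cDNA was amplified by PCR before labelling, a method intended for small numbers of cells.

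A B cell assembles its light chain by joining a variable (V) segment to a joining segment, and the joined exon is spliced to a constant (C) segment. In the mouse the kappa locus lies on chromosome 6 and carries many V segments, whereas the lambda locus on chromosome 16 carries few, and most mouse B cells use kappa. A B cell normally expresses a single light chain. The kappa locus has a single C segment, so the Igkc probe reads all kappa cells. The lambda locus has several C segments, so the Iglc2 probes need not read every lambda cell. A V probe reads those cells that use a matching segment. Light chain transcripts are present in resting B cells and become far more abundant when a cell turns to antibody secretion.

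Levels are given as the log2 of the scanner's processed signal minus the 75th percentile of the array, so that 0 is the signal of that percentile and each unit is a doubling. Spots called well above background by the scanner started at levels between -4.43 and -3.81, depending on the array. Below that, a value marks only that the probe was dim. A probe was tested when it was well above background on at least 3 of the 12 arrays. This kept 45 of the 50 light chain probes, 41 kappa and all 4 lambda, among 37648 tested probes. Of the light chain probes, 26 were well above background on all 12 arrays. Of the tested light chain probes, 7 reached 3 arrays through IL-10+ cells alone, with fewer than 3 IL-10- arrays, and 0 did so through IL-10- cells alone. The 7 include Igkv6-20, D85126, XM_357633 and X91669, and the counts below hold them. X91669 was well above background on IL-10+ arrays only, so it could pass the filter only by being higher there. The 5 that were not tested were Igkv4-55, Igkv6-15, U29595 and 1 of a pair of Igkv4-53 rows, none of which was well above background on any array, and TC1658734, which was on 1. Just inside the limit were Igkv2-112 and U30234, each on 3 arrays, and U29631, on 4. No probe's level is compared with that of another probe, since probes differ in their response.

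Of the kappa probes, 38 map to chromosome 6 in the array's own annotation on mouse build mm9, 3 elsewhere in the genome and 5 to no position. The 4 lambda probes map to chromosome 16. No mm9 gene annotation was used here, so exon or untranslated region is not stated. Each probe is a 60-base oligonucleotide present as 1 spot. Several kappa probes are near copies of each other, and these are shown because their values cannot be counted as separate observations. Of 1225 pairs of light chain probes, 12 had a local alignment score of at least 40 (1 for a match, minus 1 for a mismatch), and 9 probes took part in them. Of these, 5 kappa probes shared a run of 20 bases, given in capitals:
U18569: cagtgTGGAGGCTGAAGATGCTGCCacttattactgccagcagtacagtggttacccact
Igkv4-71 (ENSMUST00000101325): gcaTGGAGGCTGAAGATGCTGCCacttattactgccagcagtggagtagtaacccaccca
Igkv4-69 (ENSMUST00000103349): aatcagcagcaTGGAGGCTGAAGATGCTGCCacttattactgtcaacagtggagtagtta
U18580: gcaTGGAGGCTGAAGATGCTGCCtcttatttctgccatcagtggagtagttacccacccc
ENSMUST00000177795: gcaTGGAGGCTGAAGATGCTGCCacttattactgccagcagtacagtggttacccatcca
The run TGGAGGCTGAAGATGCTGCC occurs in 5 of the 50 light chain probes and in 6 of all 55681 probes (0.0108%), and its reverse complement in 0. The array places these probes on the minus strand of chromosome 6, U18569 at chr6:69494355-69494414, Igkv4-69 at chr6:69233792-69233851, U18580 at chr6:68992966-68993025 and ENSMUST00000177795 at chr6:69349806-69349865. The entry for the Igkv4-71 probe spans 106201 bases, so no position is given for it. The other like pairs were D85126 with X91669 and Igk-V21 with U18577.

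The probes for the constant segments and for the lambda variable segments carry the comparison of the chains. Both Iglc2 probes lie end to end on the minus strand of chromosome 16, at chr16:19198704-19198763 (called probe 1) and chr16:19198651-19198710 (probe 2), and overlap by the 7 bases in capitals:
Iglc2 probe 1: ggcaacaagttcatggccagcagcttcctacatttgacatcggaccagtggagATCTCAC
Iglc2 probe 2: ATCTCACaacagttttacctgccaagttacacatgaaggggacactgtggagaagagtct
The remaining lambda probes are at chr16:19061905-19061964 (Iglv1) and chr16:19241304-19241363 (S79427), both on the minus strand, and the Igkc probe is at chr6:70676692-70676751 on the plus strand. No capitals are set in these, which are shown as the targets read:
Igkc: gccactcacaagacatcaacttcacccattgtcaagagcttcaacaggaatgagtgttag
Iglv1: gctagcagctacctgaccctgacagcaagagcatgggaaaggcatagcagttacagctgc
S79427: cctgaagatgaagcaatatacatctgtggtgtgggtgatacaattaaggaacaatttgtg

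Before the results, 3 facts of the arrays bear on all of them. The IL-10- HDM array 3 stood apart: its mean correlation with the other arrays was 0.742, against 0.841 to 0.879 for the others, and 67.7% of the tested probes were well above background on it, against 74.5% to 88.9%. The array barcodes show 2 slides. Slide 1 held all 6 IL-10+ arrays and IL-10- control arrays 1 and 2. Slide 2 held IL-10- control array 3 and the 3 IL-10- HDM arrays, so that in HDM mice the sort and the slide cannot be told apart. A slide term in the model is set by IL-10- control array 3 against arrays 1 and 2 of that group. Every value below with the slide in the model thus rests on that 1 array. Il10, the target of the sort, had levels of 6.89, 6.97 and 6.42 in IL-10+ HDM cells, against -0.089, -0.045 and -5.43 in IL-10- HDM cells. In control mice its levels were 6.97, 7.57 and 6.92 in IL-10+ cells, against 1.12, 0.69 and -0.04 in IL-10- cells. The IL-10+ and IL-10- arrays did not overlap, and the averaged log2 fold change was 7.59 (SE 0.84, adjusted p = 0.0124, limma). All 8 B cell markers looked at, among them Ms4a1, Cd22, Pax5 and Cd79b, were measured. Averaged over the mice, 0 were called different between IL-10+ and IL-10- cells at an adjusted p under 0.05 (limma). Only 1, Blk, had an unadjusted p under 0.05. It was higher in IL-10+ cells, at an averaged log2 fold change of 1.14 (SE 0.33, adjusted p = 0.272, limma).

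Most light chain probes of both chains had higher levels in IL-10+ than in IL-10- cells, and 2 of them passed the test. Averaged over HDM and control mice, 43 of the 45 tested light chain probes had a log2 fold change above 0, whereas 54.4% of all tested probes did. The median log2 fold change was 1.77 over the 41 kappa probes and 1.08 over the 4 lambda probes, against 0.064 over all tested probes. An unadjusted p under 0.05 with a higher level in IL-10+ cells was reached by 29 light chain probes, and by 6.3% of all tested probes. In the other direction there were 0 light chain probes and 3.01% of all tested probes. At an adjusted p under 0.05 (limma, Benjamini-Hochberg over all tested probes), 2 light chain probes were called, both kappa V probes and both higher, and 0.324% of all tested probes were called higher. The 2 called probes are 4.44% of the 45. The 45 include the 7 probes that reached the filter through IL-10+ cells alone, the called Igkv6-20 among them. In these sorted populations, fewer cells using a segment and less RNA per cell cannot be told apart.

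**Figure D1:**
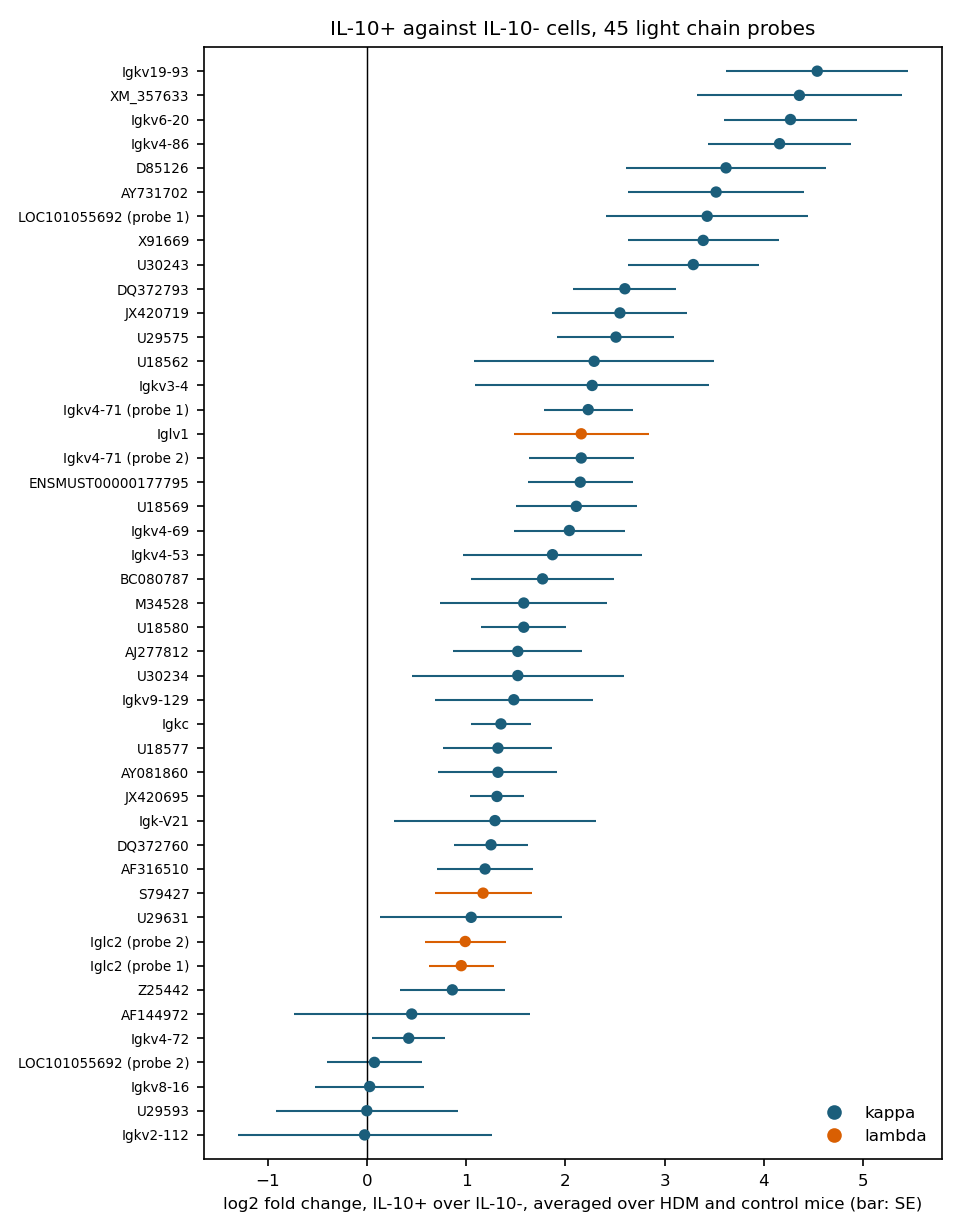
Log2 fold change of IL-10+ over IL-10- cells, averaged over HDM and control mice, for the 45 tested light chain probes (points, with the SE as bars; blue kappa, orange lambda; probes from the highest to the lowest value). Of them, 43 lie above 0, and the 4 lambda probes lie between 0.95 and 2.16.

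The called kappa V probes were Igkv6-20 and Igkv4-86, which are shown because they alone passed the test. The array places Igkv6-20 at chr6:70286426-70286485 on the minus strand. For Igkv4-86 it gives chr6:68860655-68860899 on the minus strand, a span of 245 bases that is longer than the probe. Neither belongs to the near copies above:
Igkv6-20: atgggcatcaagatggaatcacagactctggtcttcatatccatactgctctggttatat
Igkv4-86: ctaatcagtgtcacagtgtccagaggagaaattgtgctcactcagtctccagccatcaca
Igkv6-20 had levels of 1.29, -0.92 and -2.34 in IL-10+ HDM cells, against -5, -5.31 and -5.98 in IL-10- HDM cells. In control mice its levels were -1.93, -0.028 and -1.59 in IL-10+ cells, against -5.96, -3.5 and -5.38 in IL-10- cells. It was well above background on all 6 IL-10+ arrays and on 1 of the 6 IL-10- arrays, control array 2. It rose in IL-10+ cells, with an averaged log2 fold change of 4.27 (SE 0.67, adjusted p = 0.0337, limma). This probe reached the filter through IL-10+ arrays alone, so its call is no separate support for a higher level there. Because none of the IL-10- HDM arrays had this probe well above background, the difference in HDM mice is a bound, at least 11.9-fold higher in IL-10+ cells (adjusted p = 0.0925, limma). Such a bound sets the mean of the brighter group against, for each array of the dim group, the higher of the lowest signal well above background and the probe's own.

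Igkv4-86 had levels of -0.62, 0.72 and 2.07 in IL-10+ HDM cells, against -5.05, -3.09 and -6.23 in IL-10- HDM cells. In control mice its levels were 0.17, 2.07 and -0.094 in IL-10+ cells, against -1.5, -3.57 and -1.19 in IL-10- cells. The IL-10+ arrays lay above all IL-10- arrays for both probes. Igkv4-86 also rose, with an averaged log2 fold change of 4.16, that is 17.8-fold (SE 0.72, adjusted p = 0.0499, limma). It was well above background on 1 of the 3 IL-10- HDM arrays, so this fold change rests partly on dim values. Within each kind of mouse neither probe passed: for Igkv4-86 the log2 fold change was 5.51 in HDM mice (adjusted p = 0.0701) and 2.80 in control mice (adjusted p = 1, limma), and for Igkv6-20 it was 3.77 in control mice (adjusted p = 0.592, limma).

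Both calls lie close to the threshold. With the slide as a term in the model, Igkv6-20 had a log2 fold change of 3.84 (adjusted p = 0.556) and Igkv4-86 of 5.05 (adjusted p = 0.444), and limma called 0 light chain probes, although 11 reached an unadjusted p under 0.05 and were higher in IL-10+ cells. With that term, 2674 of all 37648 tested probes reached an unadjusted p under 0.05 in either direction (limma). Over all alternatives, the adjusted p ran from 0.0315 to 0.556 for Igkv6-20 and from 0.0282 to 0.444 for Igkv4-86. When 1 array was left out, limma called 0 light chain probes in 7 cases: any of the 3 IL-10+ control arrays, IL-10+ HDM array 2, IL-10- HDM array 3, and arrays 1 and 3 of the IL-10- control cells. In these cases 24 to 29 light chain probes still reached an unadjusted p under 0.05, and 2552 to 4180 of all tested probes did in either direction (limma). A single probe was called after array 3 of the IL-10+ HDM cells or array 2 of the IL-10- control cells was left out. In both cases it was Igkv6-20. The count was 3 without IL-10- HDM array 1, namely Igkv19-93 at a log2 fold change of 5.32 (adjusted p = 0.0145), Igkv6-20 at 4.38 (adjusted p = 0.037) and AY731702 at 4.17 (adjusted p = 0.0479, all limma), and Igkv4-86 was not called. With no filter on dim probes Igkv6-20 was still called (adjusted p = 0.0429, limma).

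The kappa constant segment, which reads all kappa transcripts, was higher on every IL-10+ array than on any IL-10- array, without passing the test. Igkc had levels of 6.14, 6.71 and 6.94 in IL-10+ HDM cells, against 5.18, 5.43 and 5.97 in IL-10- HDM cells. In control mice the Igkc levels were 6.13, 7.3 and 6.77 in IL-10+ cells, against 5.12, 5.46 and 4.74 in IL-10- cells. The lowest IL-10+ array and the highest IL-10- array were thus 6.13 and 5.97. The averaged log2 fold change was 1.35, or 2.54-fold (SE 0.30, adjusted p = 0.12, limma). It was 1.07 in HDM mice and 1.62 in control mice, each with an SE of 0.42. Under quantile normalization the averaged value was 1.51 and passed (adjusted p = 0.0444, range over the alternatives 0.0444 to 0.773). With the slide in the model it was 0.98.

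The lambda constant segment differed by about the same log2 amount on both of its probes. Iglc2 probe 1 had levels of 5.36, 5.84 and 5.26 in IL-10+ HDM cells, against 4.92, 5.11 and 3.54 in IL-10- HDM cells. In control mice its levels were 5.01, 5.37 and 5.26 in IL-10+ cells, against 4.76, 4.32 and 3.73 in IL-10- cells. The groups did not overlap within either kind of mouse, although the lowest IL-10+ control array lay below the highest IL-10- HDM array. Its averaged log2 fold change was 0.95 (SE 0.33, adjusted p = 0.406), and that of probe 2 was 0.99 (SE 0.41, adjusted p = 0.512, both limma). Probe 2 overlapped in HDM mice, at 3.98, 4.54 and 4.02 in IL-10+ cells against 4.16, 4.02 and 1.98 in IL-10- cells. With the slide in the model both probes had a log2 fold change of 0.41.

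Of the lambda variable segments, Iglv1 showed narrow IL-10+ groups and wide IL-10- groups. Its levels were 2.49, 2.82 and 2.41 in IL-10+ HDM cells, against 0.77, 2.52 and -1.29 in IL-10- HDM cells. In control mice they were 2.92, 2.71 and 2.99 in IL-10+ cells, against 1.06, 1.73 and -1.39 in IL-10- cells. The SD was 0.22 in IL-10+ HDM cells and 1.91 in IL-10- HDM cells, and 0.14 in IL-10+ control cells and 1.64 in IL-10- control cells. The averaged log2 fold change was 2.16 (SE 0.68, adjusted p = 0.329, limma), and 0.30 with the slide in the model. The 2 lowest arrays, at -1.29 and -1.39, were both on slide 2, which also held IL-10- HDM arrays 1 and 2, at 0.77 and 2.52.

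For S79427 the IL-10+ and IL-10- arrays were apart in HDM mice and overlapped in control mice, and neither difference passed the test. It had levels of 1.61, 2.05 and 1.98 in IL-10+ HDM cells, against -1.03, -0.19 and -1.52 in IL-10- HDM cells. In control mice its levels were 1.6, -1.26 and 1.29 in IL-10+ cells, against 0.69, 0.83 and 1.48 in IL-10- cells. The log2 fold change was 2.79 in HDM mice (adjusted p = 0.175) and -0.46 in control mice (adjusted p = 1, limma), and 1.17 averaged. IL-10+ control array 2, at -1.26, was the low value in its group, and without it the averaged value was 1.62 (adjusted p = 0.0804, range over the alternatives 0.0804 to 0.78). The value in control mice then turned to 0.44 (adjusted p = 1), and the value in HDM mice, still 2.79, was called with an SE of 0.42 in place of 0.70 (adjusted p = 0.0304, both limma).

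**Figure D2:**
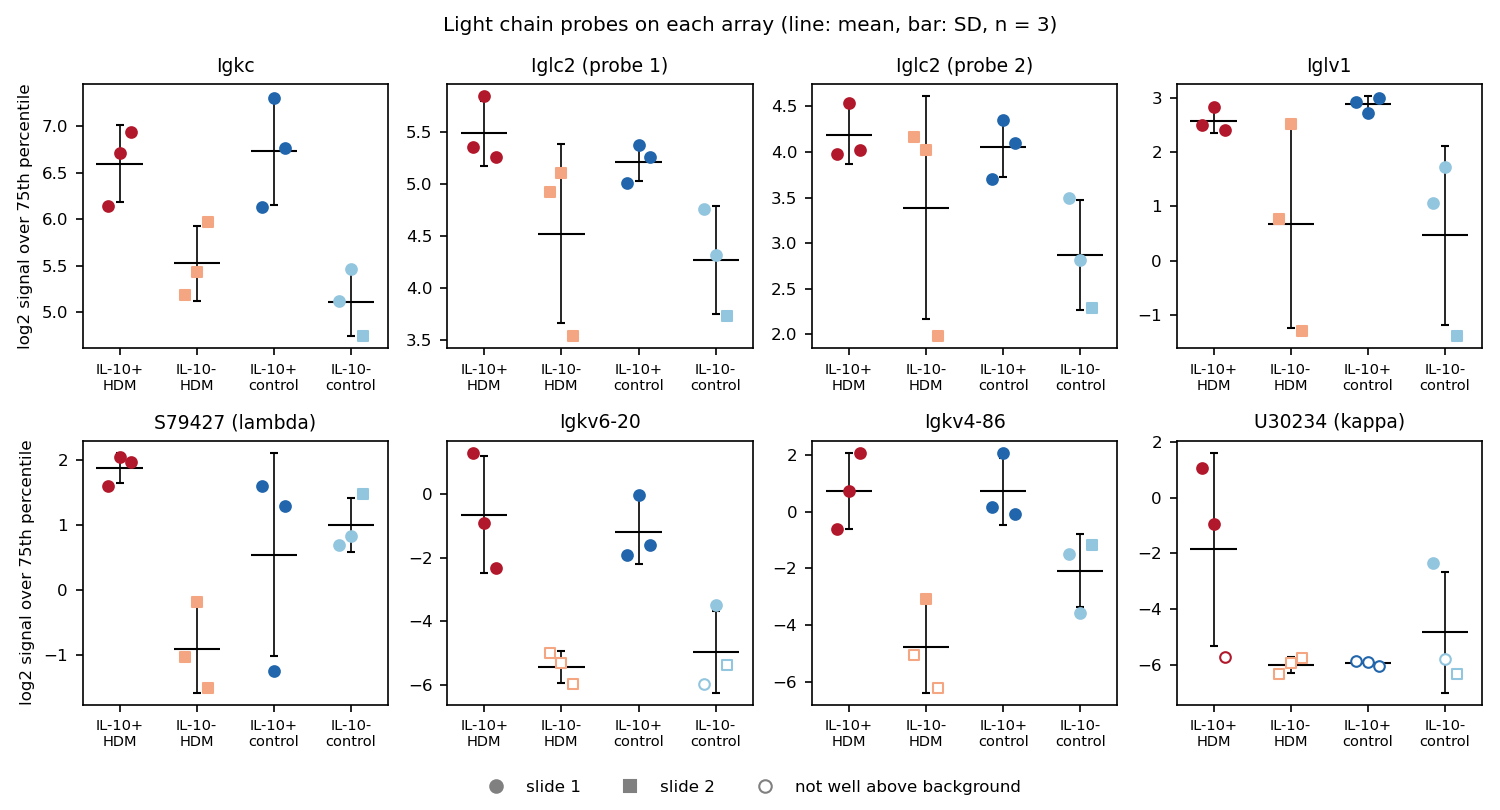
Log2 signal over the 75th percentile on each array for Igkc, the 4 lambda probes, the called kappa V probes Igkv6-20 and Igkv4-86, and the kappa clone U30234, with the mean (line) and SD (bar) of 3 arrays in each group. Circles are slide 1, squares slide 2, and open symbols were not well above background. Every IL-10+ array lies above every IL-10- array for Igkc, Igkv6-20 and Igkv4-86.

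Across the other kappa V probes the size of the difference varied widely. Of 40 kappa probes other than Igkc, 26 had an averaged log2 fold change above that of Igkc, and the 41 kappa values ran from -0.025 to 4.54. With normexp background correction the kappa values ran from 0.031 to 2.72, so the width of this range depends on how dim signals are treated. The highest were Igkv19-93, at 4.54 (SE 0.92, adjusted p = 0.0874), and XM_357633, described as similar to an Ig kappa V-V region, at 4.36 (SE 1.03, adjusted p = 0.153, both limma), named here after their values were seen. Igkv19-93 was well above background on 1 of the 3 IL-10- HDM arrays, and XM_357633 on 1 IL-10- HDM and 1 IL-10- control array. Their values thus rest partly on dim arrays, and XM_357633 reached the filter through IL-10+ arrays alone. At the other end, Igkv2-112 and U29593 had log2 fold changes of -0.025 (SE 1.28) and -0.0026 (SE 0.92), and Igkv8-16 one of 0.026 (SE 0.55).

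Arrays of all 6 IL-10+ samples lay above all 6 IL-10- samples for 11 of the 45 light chain probes, all 11 of them kappa, and for 0.744% of all tested probes. No light chain probe showed the reverse, which 0.194% of all tested probes did. Named after their values were seen, the 11 are Igkc, Igkv6-20, Igkv4-86, Igkv4-69, both Igkv4-71 probes, ENSMUST00000177795, AY731702, JX420695, JX420719 and U30243. JX420695 had the smallest spread of the kappa V probes, with levels of 4.49, 5.32 and 4.53 in IL-10+ HDM cells, against 4.32, 3.74 and 3.38 in IL-10- HDM cells. In control mice JX420695 had levels of 5.11, 5.01 and 5.1 in IL-10+ cells, against 3.25, 3.83 and 3.2 in IL-10- cells. Its averaged log2 fold change of 1.31 (SE 0.27, adjusted p = 0.0943, limma) was near that of Igkc. DQ372793 had a larger value of 2.60 (SE 0.52, adjusted p = 0.0862, limma), with 1 IL-10- control array, at -0.49, above the lowest IL-10+ array, at -0.57.

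The 5 probes with the shared run had like values. Their averaged log2 fold changes ran from 1.58 for U18580 to 2.16 for the Igkv4-71 probe, and their adjusted p from 0.168 to 0.277 (limma). The Igkv4-71 probe had levels of 2.77, 3.9 and 4.53 in IL-10+ HDM cells, against 2.11, 2.39 and -0.27 in IL-10- HDM cells. In control mice its levels were 3.16, 4.64 and 4.46 in IL-10+ cells, against 1.76, 2.23 and 2.29 in IL-10- cells. The like pair D85126 and X91669 was dim in IL-10- cells, so bounds are given for it below, and the like pair Igk-V21 and U18577 had log2 fold changes of 1.29 and 1.32. These 9 probes thus count for fewer than 9 independent readings.

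Several V probes were at background in IL-10- cells. X91669 was well above background on 2 IL-10+ HDM arrays and on all 3 IL-10+ control arrays, and on none of the IL-10- arrays, which makes it at least 3.07-fold higher in IL-10+ cells on average. No p is given for X91669, for the reason named with the filter. D85126 was well above background on all 6 IL-10+ arrays, on no IL-10- HDM array and on 1 IL-10- control array. In HDM mice D85126 was at least 5.71-fold higher in IL-10+ cells (adjusted p = 0.323, limma). It too reached the filter through IL-10+ arrays alone. The number of the 46 kappa probes well above background was 37, 40 and 36 on the IL-10+ HDM arrays, against 33, 30 and 25 on the IL-10- HDM arrays. It was 38, 39 and 38 on the IL-10+ control arrays, against 36, 31 and 32 on the IL-10- control arrays. These counts did not overlap in either kind of mouse. The share of all tested probes well above background also separated in HDM mice, at 83.7% to 88.6% in IL-10+ cells against 67.7% to 83.4% in IL-10- cells, and overlapped in control mice, at 74.5% to 87.7% against 78.4% to 88.9%. Its part in the kappa counts was not tested. All 4 lambda probes were well above background on every array.

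**Figure D3:**
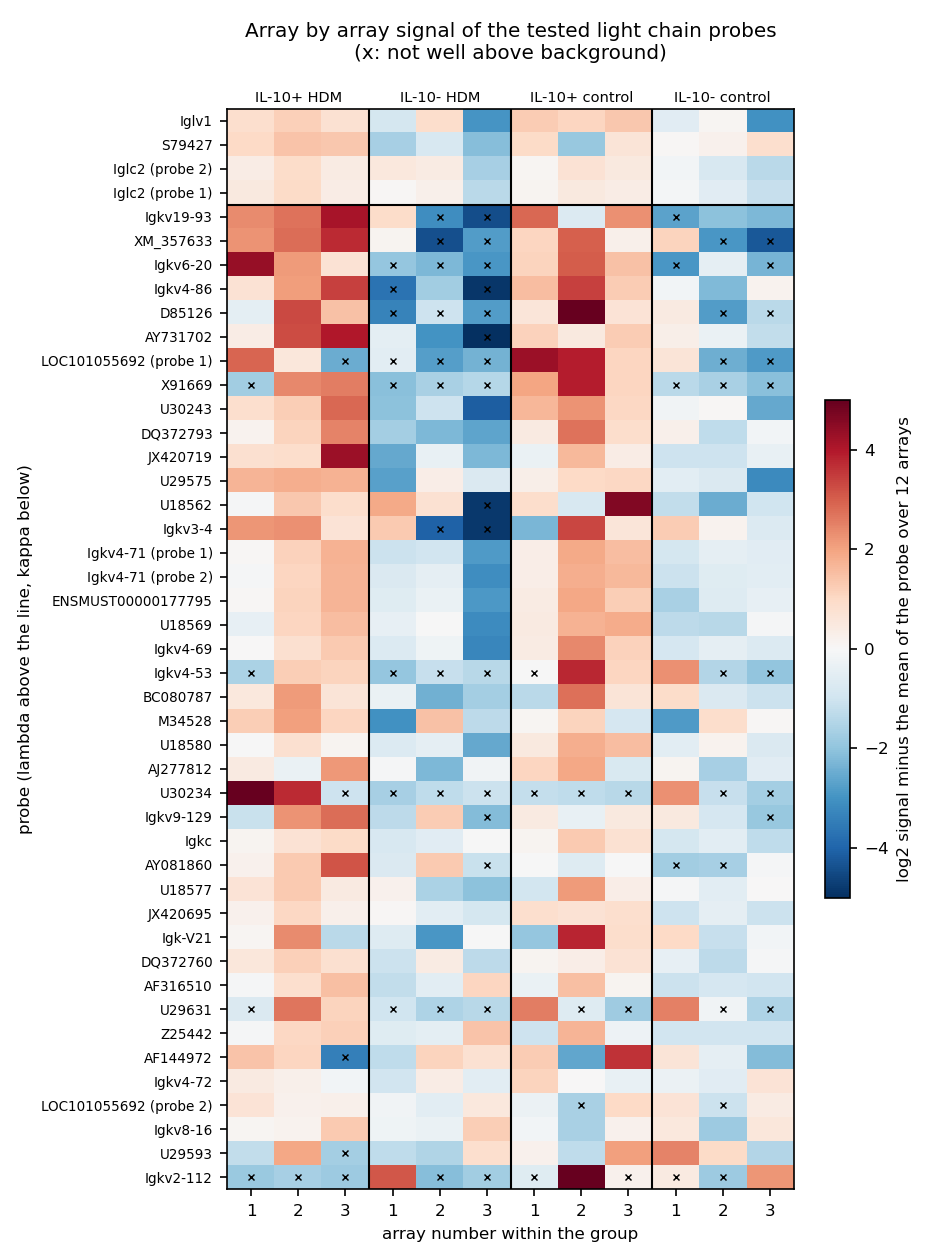
Log2 signal of each of the 45 tested light chain probes (rows) on each of the 12 arrays (columns), minus the mean of that probe over the arrays. Red is above and blue below the mean, colours stop at 5 units on either side, and a cross marks an array on which the probe was not well above background. Crosses fall mostly in the IL-10- columns, and IL-10- HDM array 3 is the bluest.

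Between arrays of the same group, kappa V probes had a wider spread than most probes, without a test. The median SD within groups was 1.26 over the 40 kappa probes other than Igkc, and 28 of them had an SD above 1. The same median was 0.92 over all tested probes, while Igkc had an SD of 0.45 and the Iglc2 probes of 0.53 and 0.72. Among probes well above background on all 12 arrays, the median was 1 over 21 such kappa probes and 0.58 over all 19121 such probes. The widest ranges over the 12 arrays were those of AY731702 (9.8), U18562 (9.44) and D85126 (8.65). AY731702 had levels of 0.1, 3.01 and 3.74 in IL-10+ HDM cells, against -0.76, -3.26 and -6.05 in IL-10- HDM cells. U18562 had levels of -0.27, -1.95 and 3.46 in IL-10+ control cells, against -2.37, -3.63 and -2.17 in IL-10- control cells. Array 3 of the IL-10+ control cells stood far above the rest of that group.

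Along the kappa locus most tested V probes had higher averaged levels in IL-10+ cells, and 54.4% of all tested probes did. The tested V probes placed in the locus region of chromosome 6 were divided into 3 parts by the distance of their listed start from Igkc on mm9. The Igkv4-71 probe with the long entry is among them, and both ends of its entry fall in the middle part. The 12 nearest, at 27.7 to 903 kb, had a median averaged log2 fold change of 2.02, and all 12 were positive. The 11 in the middle, at 962 to 1800 kb, had a median of 2.11, and the 12 farthest, at 1820 to 3120 kb, one of 1.40, with 10 positive. The middle part holds the 5 probes with the shared run, so it counts for fewer than 11 independent readings. The nearest part holds the like pairs D85126 with X91669 and Igk-V21 with U18577, so it counts for fewer than 12. The values ran from 0.026 to 4.36 in the nearest part and from -0.025 to 4.54 in the farthest, and no test was made. The nearest part holds Igkv6-20, XM_357633, D85126 and X91669, and the middle part Igkv4-53 and U29631. These reached the filter through IL-10+ arrays alone, so their positive values are no separate support for a higher level there.

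Within each kind of mouse no light chain probe was called, although the direction was the same as in the average. In HDM mice 0 of 45 passed an adjusted p under 0.05 (limma), where 0.194% of all tested probes were called higher. A log2 fold change above 0 was found for 43, and for 59.2% of all tested probes. At an unadjusted p under 0.05, 25 were higher in IL-10+ HDM than in IL-10- HDM cells, and 8.44% of all tested probes were, while 0 were lower, and 4.71% of all tested probes were. The medians were 2.09 for kappa and 1.43 for lambda, against 0.23 for all tested probes. With the array median as scale they were 1.30 and 0.64, against -0.57. The IL-10+ HDM and IL-10- HDM arrays did not overlap for 24 light chain probes, higher in IL-10+ cells, and for 12.1% of all tested probes, and the reverse held for 0 and for 10%.

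The largest fitted differences in HDM mice were those of AY731702, at 5.64 or 49.9-fold (SE 1.26, adjusted p = 0.132), and Igkv4-86, given above. DQ372793 had levels of -0.57, 0.39 and 1.74 in IL-10+ HDM cells, against -2.45, -3 and -3.39 in IL-10- HDM cells, a log2 fold change of 3.46 (SE 0.74, adjusted p = 0.119, both limma). For AY731702 and DQ372793 the arrays did not overlap. AY731702 was not well above background on IL-10- HDM array 3, and Igkv4-86 was so on only 1 of the 3 IL-10- HDM arrays. The fitted sizes for these probes thus rest partly on dim values.

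In control mice 0 of 45 passed (limma), where 0.0159% of all tested probes were called higher. A log2 fold change above 0 was found for 39, and for 47.3% of all tested probes. There 19 had an unadjusted p under 0.05 and were higher in IL-10+ cells, and 2.39% of all tested probes were, while 0 were lower, and 1.74% of all tested probes were. The medians in control mice were 1.47 for kappa and 1.06 for lambda, against -0.035 for all tested probes, and 25 light chain probes did not overlap and were higher, against 4.83% of all tested probes, with 0 against 4.67% the other way. JX420695 had the smallest p in control mice, with a log2 fold change of 1.65 (SE 0.38, adjusted p = 0.458, limma). X91669 was at least 4.51-fold higher in IL-10+ cells there.

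On slide 1 alone, which holds 3 IL-10+ control and 2 IL-10- control arrays, the medians were 1.45 for kappa and 0.78 for lambda, with 17 light chain probes at an unadjusted p under 0.05 and higher. Of all 37648 tested probes, 2607 reached an unadjusted p under 0.05 there in either direction (limma). With the slide as a term for HDM mice, the kappa median was 1.86 and the lambda median 0.035. Adding this term, which is set by IL-10- control array 3, moved the lambda value far more than the kappa value. In HDM mice it does not separate the slide from the sort. Without IL-10- HDM array 3, the medians in HDM mice were 1.80 for kappa and 0.70 for lambda, and 17 light chain probes had an unadjusted p under 0.05 and were higher in IL-10+ cells. Without IL-10+ HDM array 2 that number was 13, and without IL-10+ control array 2 the number in control mice was 7. Without array 3 of the IL-10- control cells it was 11. For these 4 cases in the same order, 3711, 3136, 1367 and 1640 of all tested probes reached an unadjusted p under 0.05 in either direction (limma).

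**Figure D4:**
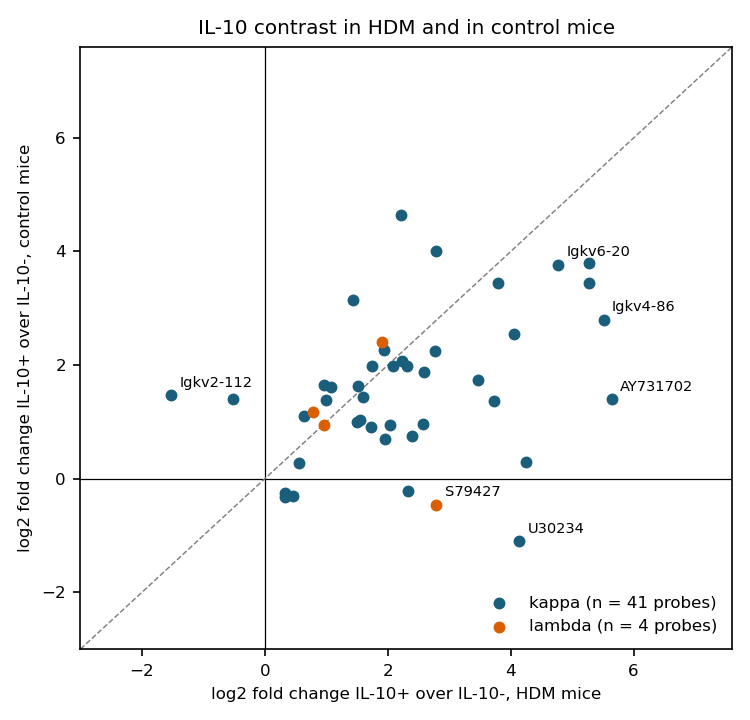
Log2 fold change of IL-10+ over IL-10- cells in HDM mice (x axis) and in control mice (y axis) for the 41 kappa and 4 lambda probes tested, with the line of equal values dashed. Most probes lie above 0 on both axes. In all, 6 probes, U30234 and S79427 among them, lie above 0 in HDM mice and below it in control mice, and 2, Igkv2-112 and AF144972, the other way round.

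The difference between HDM and control mice in the IL-10 contrast was not called for any light chain probe, nor for any tested probe (0%, limma). At an unadjusted p under 0.05, 3 light chain probes had a larger contrast in HDM mice, and 4.69% of all tested probes did, while 0 had a smaller one, and 1.81% of all tested probes did. The difference was above 0 for 31 of the 45, and for 57.9% of all tested probes. The kappa median of this difference was 0.53 and the lambda median -0.18, against 0.23 for all tested probes. Scaled to the array median, these became -0.40 for kappa and -1.12 for lambda, against -0.71 for all tested probes, so the sign of the kappa median turned while its place above all tested probes did not. The 3 probes were S79427, at 3.26 (SE 0.99, adjusted p = 0.685; 2.35 without IL-10+ control array 2), U30234, at 5.24 (SE 2.13, adjusted p = 0.758), and AY731702, at 4.24 (SE 1.78, adjusted p = 0.758, all limma).

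No light chain probe was called for HDM against control in either sorted population. In IL-10+ cells, limma called 0 of 45, and 0.00531% of all tested probes in either direction. A log2 fold change above 0 was found for 24, and for 56.3% of all tested probes. The HDM and control arrays did not overlap for 4 light chain probes that were higher and 1 that was lower, against 5.83% and 3.9% of all tested probes. A single light chain probe had an unadjusted p under 0.05, U30234, higher in HDM, and 1.51% of all tested probes were. The medians were 0.0077 for kappa and 0.20 for lambda, against 0.082 for all tested probes, and with the array median as scale -0.28 and -0.086, against -0.21. U30234, cloned from an anti-DNA hybridoma, had levels of 1.05, -0.93 and -5.7 in IL-10+ HDM cells, and on none of the IL-10+ control arrays was it well above background. It was at least 4.56-fold higher in IL-10+ HDM cells (adjusted p = 1, limma), which rests on 2 of 3 arrays. Conversely, Igkv2-112 was well above background on none of the IL-10+ HDM arrays, and in IL-10+ control cells on array 2 alone, at 1.21. AY081860 had levels of -2.8, -1.71 and 0.14 in IL-10+ HDM cells, against -3.05, -3.67 and -3.05 in IL-10+ control cells, a log2 fold change of 1.80 (SE 0.85, adjusted p = 1, limma).

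In IL-10- cells, HDM against control, 0 of 45 light chain probes were called by limma and 0.0717% of all tested probes were, in either direction, or 0.00266% higher. A log2 fold change above 0 was found for 14, and for 45.6% of all tested probes. At an unadjusted p under 0.05, 3 were lower in HDM, against 6.09% of all tested probes, and 0 were higher, against 3.31%. The 3 were Igkv4-86, at -2.70, S79427, at -1.92, and DQ372793, at -1.82, with adjusted p from 0.465 to 0.496 (limma). For Igkv4-86 the arrays overlapped. The arrays did not overlap for 3 light chain probes that were lower and 1 that was higher, against 6.83% and 5.33% of all tested probes. DQ372793 had levels of -2.45, -3 and -3.39 in IL-10- HDM cells, against -0.49, -2.01 and -0.88 in IL-10- control cells, without overlap. The medians were -0.37 for kappa and 0.23 for lambda, against -0.10 for all tested probes. When arrays were scaled to their median instead of the 75th percentile, the median of all tested probes in this comparison was 0.55 and the kappa median 0.27. The lambda median was then 0.87. The kappa median therefore lay 0.27 below the median of all tested probes on the main scale and 0.28 below it on the other scale.

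The balance of the chains was followed as the median lambda level minus the median kappa level of each array. The offset itself depends on the probes and is not read, and only its differences between groups are described, with no test. It averaged 2.33 ± 0.48 in IL-10+ HDM cells, 3.76 ± 0.57 in IL-10- HDM cells, 2.86 ± 0.45 in IL-10+ control cells and 3.16 ± 0.56 in IL-10- control cells (SD, n = 3 each). In HDM mice IL-10+ cells were 1.43 lower than IL-10- cells and the arrays did not overlap, at 1.78 to 2.67 against 3.36 to 4.41. The difference was -0.88 with 1 probe per gene name and -0.89 with normexp background correction. In control mice the difference of -0.30 was smaller than the pooled SD of 0.52, at 2.43 to 3.33 in IL-10+ cells against 2.53 to 3.59 in IL-10- cells. The kappa medians were 1.04 ± 0.44 in IL-10+ HDM cells, -1.74 ± 1.11 in IL-10- HDM cells, 0.60 ± 0.57 in IL-10+ control cells and -1.02 ± 0.67 in IL-10- control cells (SD, n = 3 each). The lambda medians were 3.38 ± 0.26, 2.03 ± 1.51, 3.46 ± 0.13 and 2.15 ± 0.23 in the same order of groups.

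For the constant segments alone the balance in HDM mice depended on single arrays, in sign as well as size. Igkc minus the mean of the Iglc2 probes was 1.76 ± 0.46 in IL-10+ HDM cells and 1.57 ± 1.42 in IL-10- HDM cells, and 2.10 ± 0.33 in IL-10+ control cells and 1.54 ± 0.48 in IL-10- control cells (SD, n = 3 each). The IL-10+ and IL-10- arrays overlapped in both kinds of mice. The highest of the IL-10- HDM values, 3.21, came from array 3, and the other arrays of that group gave 0.64 and 0.87, below all IL-10+ HDM arrays at 1.47 to 2.29. The difference of IL-10+ and IL-10- cells was 0.19 in HDM mice with all arrays and 1.01 without that array, and 0.56 in control mice. In HDM mice its sign turned when array 1 or 2 of the IL-10- group was dropped, to -0.28 or -0.16. Dropping array 3 of the IL-10+ group gave -0.073, whereas dropping array 1 or 2 of that group gave 0.34 or 0.31.

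**Figure D5:**
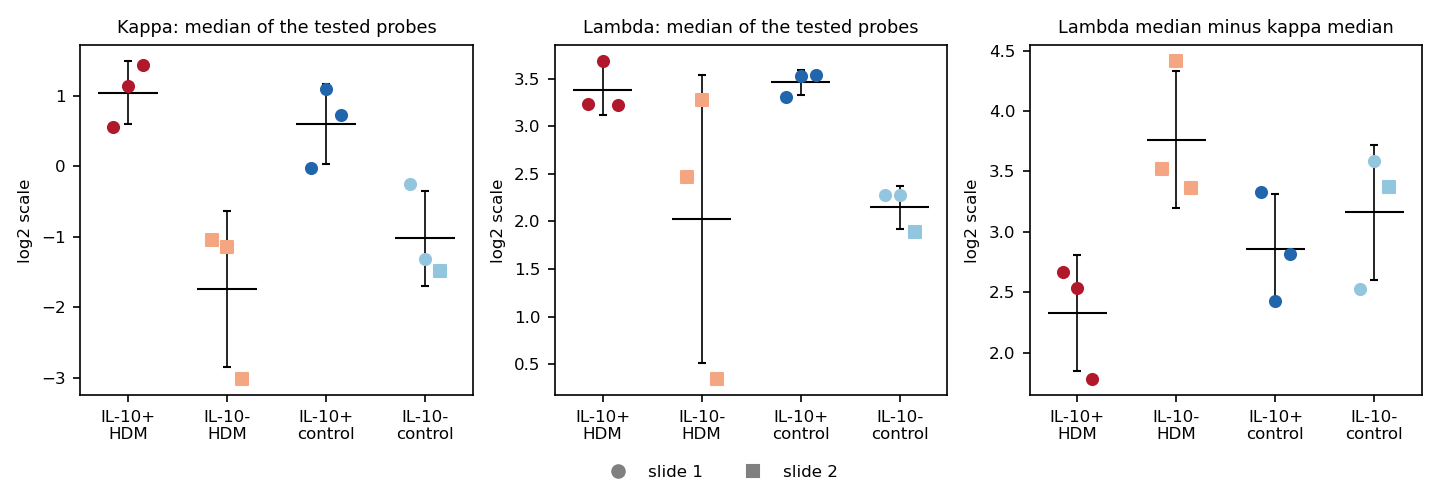
Median level of the 41 tested kappa probes (left), of the 4 lambda probes (middle) and the lambda minus the kappa median (right) on each array, with the mean (line) and SD (bar) of 3 arrays in each group. Circles are slide 1 and squares slide 2. The right panel separates IL-10+ from IL-10- cells in HDM mice and not in control mice.

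Of the other genes of the light chain and antibody pathway, 3 besides Il10 were called averaged over the mice: Jchain, Ikzf1 and Blnk. Jchain, which encodes the chain that joins secreted IgM and IgA into polymers, had levels of 1.33, 1.85 and 2.53 in IL-10+ HDM cells and was well above background on none of the IL-10- HDM arrays. In control mice Jchain had levels of 0.88, 3.41 and 1.61 in IL-10+ cells, against -2.95, -6.24 and -4.3 in IL-10- cells. It rose in IL-10+ cells, with an averaged log2 fold change of 6.84 (SE 0.63, adjusted p = 0.00614, limma), and was at least 69.9-fold higher in HDM mice. It was the only 1 of 11 antibody secretion genes called in that comparison. The others included Prdm1 and Xbp1, transcription factors of plasma cells, at 0.29 (SE 0.30) and -0.29 (SE 0.86), Mzb1, a chaperone partner of antibody assembly, at 2.08 (SE 0.95) averaged and 3.81 (SE 1.35, adjusted p = 0.303, limma) in HDM mice, and Sdc1, which encodes the plasma cell surface protein CD138, at -1.08 (SE 1.36). Ell2, an elongation factor that acts in the switch to secreted heavy chain, had a value of 1.26 (SE 0.43, unadjusted p of 0.014, adjusted p = 0.382, limma), the smallest p of the genes not called.

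The list of 6 plasmablast markers (Sdc1, Prdm1, Jchain, Xbp1, Irf4 and Mzb1), which shares members with the secretion list, had 1 called and a median log2 fold change of -0.0022. Its summed linear signal, in multiples of the 75th percentile, was 87 to 104 in IL-10+ HDM cells, 131 to 306 in IL-10- HDM cells, 81.4 to 196 in IL-10+ control cells and 76.5 to 109 in IL-10- control cells. Irf4, at levels of 6.18 to 8.24, made up most of this sum, so that the sum says little of Jchain or Mzb1. The part of antibody-secreting cells in the light chain values was not tested.

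The surrogate light chain and recombination list had 8 of 11 genes measured and 0 called averaged over the mice by limma, and 1 reached an unadjusted p under 0.05. Igll1, a component of the surrogate light chain, and Rag1, a recombinase subunit, were not well above background on any array. Vpreb1, Vpreb2 and Vpreb3, which are or resemble the other component of the surrogate light chain, had averaged log2 fold changes of 0.24, 0.10 and -0.71, with SEs of 0.37, 0.57 and 0.36.

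Of 14 measured transcription factors of the light chain loci, 1 was called averaged over the mice. Ikzf1 encodes the zinc finger factor Ikaros. On its brightest probe it had levels of 1.06, 1.77 and 1.43 in IL-10+ HDM cells, against -4.36, -3.08 and -5.85 in IL-10- HDM cells. In control mice the same probe had levels of 2.09, 1.66 and 1.69 in IL-10+ cells, against 0.85, 0.29 and 1.21 in IL-10- cells. The averaged log2 fold change was 3.44 (SE 0.43, adjusted p = 0.0155, limma). The other 2 Ikzf1 probes gave 1.98 (adjusted p = 0.5) and 1.55 (adjusted p = 0.729, both limma), so the probes of this gene disagree in size. Pax5 and Irf4, which also act on the light chain loci, had log2 fold changes of 0.39 (SE 0.31) and -0.34 (SE 0.33), neither called, and the other Pax5 probe gave -0.45 (SE 0.67). The brightest Ikzf1 probe had 5.85 in HDM mice (adjusted p = 0.0105, limma), where sort and slide cannot be told apart, and 1.03 in control mice, not called. For HDM against control in IL-10- cells it was called at -5.21 (adjusted p = 0.0224, limma). It was well above background on 1 of the 3 IL-10- HDM arrays.

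Of 9 genes of the B cell receptor complex and its signalling, 1 was called averaged over the mice. Blnk, an adaptor below the receptor, had levels of 0.4, 0.61 and 0.46 in IL-10+ HDM cells, against 1.99, 1.95 and 2.15 in IL-10- HDM cells. In control mice Blnk had levels of -0.34, -0.91 and 0.039 in IL-10+ cells, against 0.86, 1.67 and 0.97 in IL-10- cells. It fell in IL-10+ cells, with a log2 fold change of -1.56 (SE 0.26, adjusted p = 0.039, limma). Cd79a and Cd79b, the signalling partners of surface immunoglobulin, had log2 fold changes of 1.14 (SE 1.26, brighter of the tested probes) and -0.34 (SE 0.46). The other Cd79a probe gave -0.50 (SE 0.59), and IL-10- HDM array 3, at -5.87, was far below all other arrays on the brighter one. For the heavy chain, the list had 1 row by its gene symbols, Ighm, described as an IgM variable region, with a log2 fold change of 0.35 (SE 0.41, adjusted p = 0.822, limma).

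Markers of other cell types were followed as well. No T cell, NK, monocyte and macrophage, dendritic, neutrophil or erythroid marker was called averaged over the mice by limma, and 2 reached an unadjusted p under 0.05, 1 of the monocyte and 1 of the erythroid list. The summed T cell markers were 3.22 to 4.49 in IL-10+ HDM cells, 3.24 to 6.14 in IL-10- HDM cells, 2.71 to 4.55 in IL-10+ control cells and 3.51 to 4.95 in IL-10- control cells. The summed monocyte and macrophage markers were 436 to 448 in IL-10+ HDM cells, 372 to 502 in IL-10- HDM cells, 381 to 510 in IL-10+ control cells and 380 to 423 in IL-10- control cells. The brightest Itgam probe, at group means of 8.75, 8.68, 8.77 and 8.61 in the same order, made up most of that sum, while the group means of Lyz2 lay between -6.18 and -4.01. Klrk1, Itgax, S100a8 and Hbb-b1 were not well above background on any array.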

How the data were processed

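The files hold 12 one-colour arrays. Per the labels, cDNA of bead-isolated mRNA was amplified by PCR (SuperAmp) and Cy3-labelled. The file headers name the arrays as Agilent design 028005. Per the file headers, Feature Extraction 10.7.3.1 quantified the scans. The deposited processed-signal intensity is background-subtracted and detrended within the array, with no normalization between arrays, and the flags for background and outlier spots are other values. The values of the deposited table are a ratio: dividing the processed signal by the median of its array gave them back to within 0.00077%. No spot was saturated. Arrays give no counts, so their number limits the precision.

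The log2 processed signal minus the 75th percentile of the array was fitted per probe by lmFit and eBayes of limma 3.58.1 (R 4.3.3). The model had a mean per group and no covariates, and all 12 arrays entered the estimate of the spread (residual df 8, prior df 2.15, prior SD 0.715). There were 6 contrasts, with Benjamini-Hochberg adjustment over the 37648 tested probes of each. Control spots and outlier spots were left out, and 87 probes with every spot an outlier on some array were not tested, none of them a light chain probe. The fit was tested on simulated data. Probe sequences came from the deposited files and were aligned with Biopython 1.88. Distances and positions are the array's, on mm9.

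All lambda and constant probes are named, with called kappa probes or, where none was called, the 3 with the smallest p, the 3 widest in range, and called members of the gene lists. Others are marked as chosen after their values were seen. Some single list genes are not reported here. The members and lists were chosen with earlier results of these data known. Alternatives were the array median, quantile normalization, normexp (offset 50), no filter or at least 6 arrays, 1 probe per gene name, slide and replicate terms, slide 1 alone, and leaving out each array.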

Additional observations from a re-analysis of the deposited data

Results flagged for a closer look

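S79427, the lambda variable probe, stood out because its HDM and control arrays were apart in opposite directions in the sorted populations. In IL-10+ cells its log2 fold change of HDM over control was 1.34 (SE 0.70), with levels of 1.61, 2.05 and 1.98 in HDM cells against 1.6, -1.26 and 1.29 in control cells, so that the nearest arrays almost touch. Without the low control array 2 the value was 0.44 (SE 0.47). In IL-10- cells it was -1.92 (SE 0.70), with -1.03, -0.19 and -1.52 in HDM cells against 0.69, 0.83 and 1.48 in control cells. The difference between both, 3.26 (SE 0.99), had an unadjusted p of 0.0078 and an adjusted p of 0.685 (limma over all tested probes), so it did not pass, and it was 2.35 without IL-10+ control array 2. The IL-10- HDM arrays were all on slide 2, and IL-10- control array 3, on the same slide, had 1.48.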

How the results depend on the processing

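For IL-10+ against IL-10- cells averaged over HDM and control mice, 2 light chain probes were called in the main analysis, the same 2 with at least 6 arrays required, and 1, Igkv6-20, without a filter on dim probes or with 1 probe per gene name. Under quantile normalization 1 was called, Igkc, and neither Igkv6-20 nor Igkv4-86. No probe (0) was called with the array median as scale, with normexp or with the slide as a block, with 22, 29 and 11 light chain probes higher at an unadjusted p under 0.05 (limma). Of all tested probes, 3351, 3879 and 2674 reached it in either direction, against 3505 in the main analysis. Leaving out 1 array gave 0 to 3. In HDM mice the main count was 0, and leaving out 1 array gave 0 to 2. The replicate block (number as a term, with same-numbered arrays correlating at -0.116 to 0.123 over 18 pairs, median -0.0227) gave 0 called on average, with 27 at an unadjusted p under 0.05. The numbers do not pair the samples. With this block, 3323 of all tested probes reached an unadjusted p under 0.05 in either direction (limma). For the array median, the median of all tested probes was -0.27, and the kappa median stood 1.71 above it, as in the main analysis.

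Over all probes, the averaged comparison called 130, against 11 with the array median, 67 with 1 probe per gene name, 66 with the replicate block, 0 with the slide block, and 51 to 276 without 1 array. In HDM mice it called 74, against 6 with the array median, 35 with normexp, 42 with 1 probe per gene name, 28 with the replicate block, 0 with the slide block and 3 to 392 without 1 array. In control mice the count was 6, against 0 with the array median, 10 under quantile normalization, 11 with normexp, 2 with the replicate block, 2 with at least 6 arrays and 0 to 9 without 1 array. HDM against control called 27 in IL-10- cells, against 5 with the array median, 4 with normexp, 12 with 1 probe per gene name, 1 with the replicate block, 0 with the slide block and 2 to 255 without 1 array. Under quantile normalization this was 3 higher and 16 lower, against 1 higher and 26 lower. In IL-10+ cells that comparison called 0 to 4 over all settings, and the difference of the contrasts 0 to 22.

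The lambda minus kappa difference between IL-10+ and IL-10- HDM cells was -1.43, and -0.88 with 1 probe per gene name or -0.89 with normexp. For HDM against control in IL-10- cells it was 0.60, and -0.039 with 1 probe per gene name, 0.072 under quantile normalization and 0.058 with at least 6 arrays. The difference of the contrasts was -1.13, and -0.42 with at least 6 arrays. Igkv2-112, at -0.025 for the averaged contrast, turned to 0.29 with normexp and 1.91 with the slide block, and ran from -1.0 to 0.81 without 1 array. The causes were not tested.

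With 3 arrays a group, and 5 of 50 probes too dim to test, small differences could not be resolved. Even differences well above the within-group SD were not always called. Igkv19-93, with an SD of 1.75, had an averaged log2 fold change of 4.54 and did not pass (adjusted p = 0.0874, limma).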
